A study of Mus musculus with 14 samples.

Results

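The 10 genes described here, long used as markers of the visceral endoderm, the outer epithelium of the yolk sac, were followed through 14 arrays of material captured as primitive erythroid cells. They were taken by gene symbol from the platform annotation: Afp, Ttr, Apoa1, Apoa4, Apob, Apoe, Rbp4, Foxa2, Hnf4a and Cubn. These 10 genes had 24 probe sets, a probe set being a group of short probes for 1 transcript, out of 12393 genes and 22626 probe sets measured. The rule uses no measured value. The name under which they were grouped, secreted proteins, holds for 7 of them, since Foxa2 and Hnf4a encode transcription factors of endoderm and Cubn a receptor of its apical membrane. All 10 were read as a measure of endoderm RNA in the capture.

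The visceral endoderm lies against the yolk sac mesoderm in which the first red cells form. It takes up maternal protein and lipid by endocytosis and releases serum proteins and lipoproteins before the liver does so. Many of its products are also made by the later hepatocyte, and the factors HNF4A and FOXA2 act on many of the genes in both tissues.

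Expression was measured on 14 Affymetrix mouse arrays, each from a separate sample of mouse yolk sac at embryonic day 9.5, all labelled strain FVB/N. The groups were 3 KLF1-/- arrays, 3 arrays labelled KLF1-/- KLF2-/- and 8 wild-type arrays. KLF1 and KLF2 bind DNA and regulate transcription, and KLF1 activates red cell genes. Embryos came from KLF1+/- and KLF1+/- KLF2+/- females, the labels name no driver that would limit the alleles to 1 cell type, and each sample pooled 2 to 4 yolk sacs from 2 litters. Cells were cut by laser from 8 µm sections and judged by eye, and 10 to 20 ng of RNA went through 2 cycles of amplification primed at the poly(A) tail. Arrays are named here by genotype and by the number in the sample title. Titles 1 to 4 and 9 to 12 are wild type, 5, 6 and 8 are KLF1-/-, and 13 to 15 are labelled KLF1-/- KLF2-/-. Nothing in the labels makes these numbers a batch, and wild type alone occurs in both the lower and the higher run of numbers. Samples may have shared litters, so p-values measure the spread between these pools.

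Values are deposited log2 expression per probe set, from 3.29 to 14.71, with array medians from 6.55 to 6.66. A difference of 1 is a doubling. Klf1 lay between 9.03 and 9.79 in KLF1-/- arrays and between 8.56 and 9.59 in arrays labelled KLF1-/- KLF2-/-, all below the wild-type range of 10.05 to 11.82. Klf2 averaged 6.22 ± 0.28 in KLF1-/- arrays (SD, n = 3), 6.69 ± 0.32 in arrays labelled KLF1-/- KLF2-/- (SD, n = 3) and 6.25 ± 0.25 in wild type (SD, n = 8). It was thus not lower in the arrays labelled as lacking it, and whether its probes lie in the deleted stretch is not known here. The erythroid label was met by its defining genes, with the embryonic globin genes Hbb-y at 14.2 to 14.6 and Hba-x at 11.9 to 13.6 over the 14 arrays, and the erythroid factor Gata1 at 10.1 to 11.9.

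On their brightest probe sets, the 2 serum carriers that lead the list varied least. Afp encodes alpha-fetoprotein, the main serum protein of the early embryo. Its brightest probe set, 1416645_a_at, read 13.30, 13.82 and 13.58 in KLF1-/- arrays 5, 6 and 8, and 13.76, 13.78 and 13.57 in arrays 13, 14 and 15 labelled KLF1-/- KLF2-/-. In wild type it read 13.54, 13.77, 13.55 and 13.26 in arrays 9 to 12 and 13.97, 13.87, 13.71 and 13.30 in arrays 1 to 4. Every group overlapped every other, and the whole range was 0.71. Ttr encodes transthyretin, the carrier of thyroid hormone and of retinol-binding protein. Its brightest probe set, 1454608_x_at, read 13.68, 14.04 and 13.89 in KLF1-/- arrays, 13.92, 13.75 and 13.81 in arrays labelled KLF1-/- KLF2-/-, 13.56, 13.89, 13.65 and 13.55 in wild type 9 to 12 and 14.10, 14.22, 13.83 and 13.73 in wild type 1 to 4. The highest values were those of wild type 1 and 2, and the range was 0.67. Both probe sets lay near the top of the scale, within 1 log2 unit of the highest value of the array on 12 of 14 arrays for Afp and on 13 of 14 for Ttr. A dimmer Ttr probe set, 1451580_a_at, ran from 9.64 in wild type 12 to 11.74 in wild type 2. The Afp probe set 1416646_at, not within 1 log2 unit of the highest value on any array, spread further too. It ran from 11.35 in wild type 3 to 13.31 in wild type 2.

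The apolipoproteins spread further. Apoa1 encodes the main protein of high-density lipoprotein. Its probe set 1419232_a_at read 11.80, 12.29 and 11.42 in KLF1-/- arrays and 11.61, 11.40 and 10.80 in arrays labelled KLF1-/- KLF2-/-. It read 10.72, 11.85, 10.75 and 9.91 in wild type 9 to 12 and 12.54, 12.85, 11.38 and 11.72 in wild type 1 to 4. Both ends of the range were wild type, array 12 at the bottom and array 2 at the top, a span of 2.94 or 7.68-fold. The 6 mutant arrays lay inside that span. The other 3 Apoa1 probe sets followed the first across the 14 arrays, with Pearson r between 0.92 and 0.99.

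Apob encodes the structural protein of very-low-density and low-density lipoprotein. Its probe set 1455593_at read 9.52, 10.55 and 10.13 in KLF1-/- arrays and 9.08, 9.86 and 10.57 in arrays labelled KLF1-/- KLF2-/-. Wild type 9 to 12 read 8.52, 11.05, 9.01 and 8.99, and wild type 1 to 4 read 12.02, 11.44, 10.85 and 10.90. The span was 3.49, or 11.3-fold. Wild type 9, 11 and 12 were the 3 lowest of all 14 arrays, while wild type 10 lay with wild type 1 to 4.

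Apoa4 encodes an apolipoprotein of lipid-absorbing epithelia. On 1436504_x_at it read 11.96, 12.03 and 11.73 in KLF1-/- arrays, 11.93, 11.43 and 11.92 in arrays labelled KLF1-/- KLF2-/-, 11.39, 12.01, 11.52 and 11.28 in wild type 9 to 12 and 12.07, 12.66, 11.79 and 11.81 in wild type 1 to 4. Wild type 2 stood highest, and the groups overlapped.

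Apoe encodes a ligand of lipoprotein receptors, and macrophages and other cells make it as well as endoderm. On 1432466_a_at it read 7.82, 9.91 and 8.83 in KLF1-/- arrays, 8.81, 9.39 and 8.85 in arrays labelled KLF1-/- KLF2-/-, 8.80, 9.94, 9.32 and 8.06 in wild type 9 to 12 and 7.34, 10.68, 6.51 and 9.30 in wild type 1 to 4. It had the widest span of the 10 genes, 4.18 or 18.1-fold, and wild type 1 to 4 alone held both its lowest and its highest array. Wild type 1, second highest for Apoa1, was second lowest for Apoe. This was not particular to Apoe. The dimmer Cubn probe set 1426990_at was also lowest in wild type 3, at 5.84, and next lowest in wild type 1, at 7.17.

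Rbp4 encodes the plasma carrier of retinol. It averaged 11.65 ± 0.60 in KLF1-/- arrays (SD, n = 3) and 11.36 ± 0.10 in arrays labelled KLF1-/- KLF2-/- (SD, n = 3). In wild type it ran from 10.49 in array 12 to 12.59 in array 2, with a median of 11.41. Cubn encodes cubilin, the endocytic receptor through which the epithelium takes up vitamin-binding proteins and apolipoproteins. Its probe set 1452270_s_at read 11.43, 12.10 and 10.96 in KLF1-/- arrays, 11.38, 11.20 and 10.73 in arrays labelled KLF1-/- KLF2-/-, 10.73, 11.98, 10.97 and 10.19 in wild type 9 to 12 and 11.69, 12.08, 10.56 and 11.01 in wild type 1 to 4. The 3 highest Cubn arrays came from different sets of samples, KLF1-/- 6, wild type 2 and wild type 10.

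Among the brightest probe sets, those of the transcription factor genes varied least outside the 2 near the top of the scale. Foxa2, a forkhead factor of early endoderm, ran from 7.87 to 8.15 in KLF1-/- arrays, from 7.45 to 8.10 in arrays labelled KLF1-/- KLF2-/- and from 7.37 to 8.28 in wild type, with a wild-type median of 7.98. Hnf4a, a nuclear receptor needed for the secretory function of visceral endoderm, read 9.70, 9.69 and 9.57 on 1427001_s_at in KLF1-/- arrays and 9.62, 9.33 and 9.39 in arrays labelled KLF1-/- KLF2-/-. It read 8.995, 9.94, 9.21 and 8.99 in wild type 9 to 12 and 9.97, 10.17, 9.16 and 9.78 in wild type 1 to 4. The KLF1-/- arrays lay close together (SD 0.07, n = 3), inside the wild-type range. Of the other Hnf4a probe sets, 1427000_at had r of 0.68 with this one over the 14 arrays, 1421983_s_at r of 0.12 and 1450447_at r of −0.08. Afp 1436880_at ran against the brightest Afp probe set with r of −0.62. It and the last 2 of these Hnf4a probe sets read between 4.56 and 7.64.

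**Figure D1:**
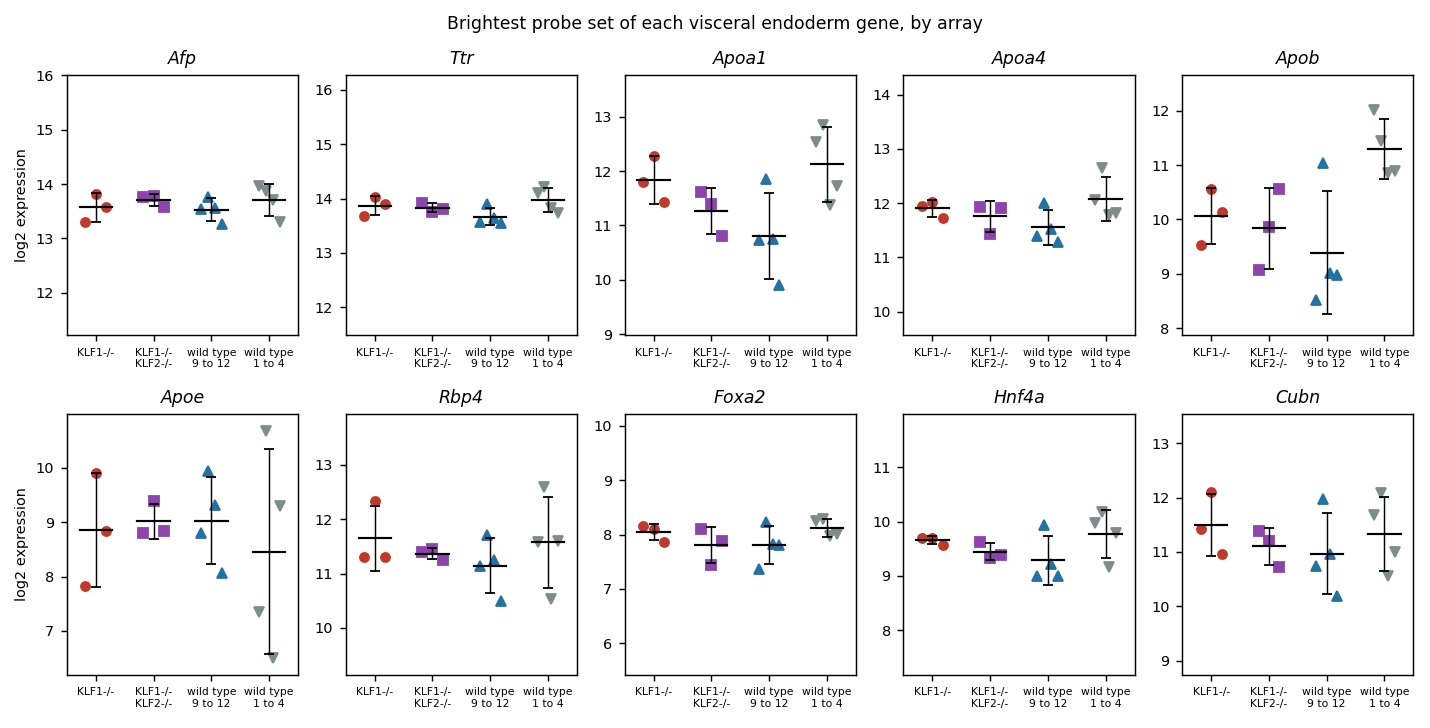
Log2 expression (vertical axis) of the brightest probe set of each of the 10 genes on each of the 14 arrays, 1 panel per gene, with 1 point per array and the groups side by side along the horizontal axis. Horizontal lines are group means and bars 1 SD either way. The groups overlap in every panel except that the 3 KLF1-/- arrays and the 3 arrays labelled KLF1-/- KLF2-/- lie below wild type 1 to 4 for Apob. Of all probe sets, 1.4% lie lower in this way in KLF1-/- arrays. For arrays labelled KLF1-/- KLF2-/- this crosses the number runs, and the share over all probe sets was not computed. Against wild type 9 to 12, 1.46% of all probe sets lay lower without overlap in these arrays and 2.89% higher. Wild type holds the highest array for 9 of the 10 genes and the lowest for all 10.

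One ordering of the arrays ran through most of the genes. Wild type 2 was the highest of the 14 arrays for 7 of the 10 genes and among the top 3 for all 10. Wild type 1 was highest for Afp and Apob and among the top 3 for 7, and KLF1-/- 6 was highest for Cubn. At the other end, wild type 12 was lowest for 7 genes and among the lowest 3 for 9. Wild type 9 was among the lowest 3 for 7 genes, while KLF1-/- 6 was among the top 3 for 7 and wild type 10 for 6. None of the arrays labelled KLF1-/- KLF2-/- was among the top 3 for any of the 10 genes, nor were KLF1-/- 5 and 8 or the other wild-type arrays. The mean of the 10 brightest probe sets was 11.9 in wild type 2 and 10.3 in wild type 12. The counts of highest and lowest arrays were not computed for all probe sets or for equally bright ones. Arrays also differ in interquartile range, a measure of the spread of their values. The narrowest, 2.31, belongs to wild type 12, and the widest to KLF1-/- 6 (3.12) and wild type 2 (2.89). Wild type 9 (2.78) and KLF1-/- KLF2-/- 14 (2.84) had wide ranges but did not stand high. The part of array spread in these ranks was not tested. In bulk material of this kind, fewer endoderm cells and less of these RNAs per cell cannot be told apart.

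**Figure D2:**
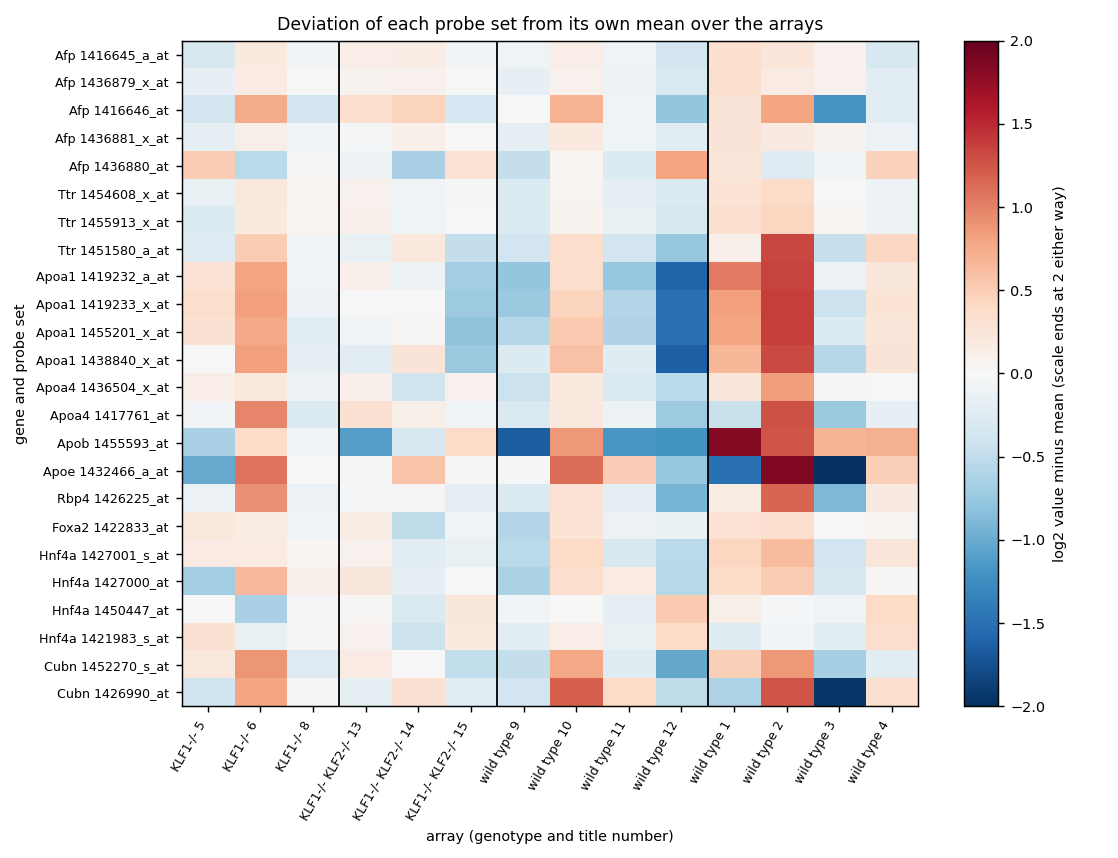
Each row is 1 of the 24 probe sets and each column 1 of the 14 arrays, and the colour gives the log2 value minus the mean of that probe set over the 14 arrays, with the scale ending at 2 either way. The column of wild type 2 is above the mean and the column of wild type 12 below it for most probe sets, and Apoe is low in wild type 1 and 3.

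Apoa1 was taken as the anchor to describe how far the genes vary together. It was chosen as a secreted product of visceral endoderm that earlier results of these data had shown to be bright. It also varies widely and is not near the top of the scale. Over the 14 arrays, Pearson r with Apoa1 was 0.90 for Hnf4a (Spearman rho 0.95), 0.88 for Cubn (0.90), 0.86 for Ttr (0.82), 0.85 for Apoa4 (0.92), 0.80 for Rbp4 (0.90), 0.73 for Apob (0.75), 0.68 for Foxa2 (0.91) and 0.64 for Afp (0.67). In permutation tests with 100000 draws, adjusted over the 15 relations examined, the adjusted p of r for these 8 genes lay between 0.00015 for Hnf4a and 0.0251 for Afp, and that of rho between 0.0001 and 0.0186. For Hnf4a the unadjusted p of r was 1e-05, the smallest these permutations can give. Apoe did not pass, with r = 0.27 (adjusted p = 0.37) and rho = 0.34 (adjusted p = 0.278).

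Wild type 2 and 12 were the arrays farthest from the median of Apoa1. Without both, r stayed at 0.84 for Hnf4a, 0.79 for Cubn, 0.77 for Ttr, 0.73 for Apoa4, 0.71 for Foxa2, 0.66 for Apob and 0.59 for Rbp4. It dropped to 0.42 for Afp and to −0.09 for Apoe. Within the higher run of numbers (7 arrays) and the lower run (7 arrays), r was 0.96 and 0.90 for Cubn, 0.95 and 0.83 for Rbp4, 0.87 and 0.86 for Hnf4a, 0.85 and 0.82 for Ttr, 0.97 and 0.64 for Afp, 0.70 and 0.89 for Apoa4, 0.52 and 0.62 for Apob, 0.79 and 0.51 for Apoe, and 0.39 and 0.91 for Foxa2. Apoe thus had a higher r with Apoa1 within each run than over all 14 arrays. After each value was centred on the mean of its genotype and number run, r was 0.99 for Cubn (adjusted p = 0.00015) and 0.60 for Apoe (adjusted p = 0.0319), and Apob and Foxa2 lost the call, both with r = 0.53 and adjusted p = 0.0583. These permutations shuffled all 14 centred values with no allowance for the means removed. The p-values after centring, here and below, are therefore too small, and a call such as that for Apoe is uncertain.

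Measures of the arrays and of other cell types were set beside Apoa1 as well. The interquartile range of the array, which spans 2.31 to 3.12 log2 units, had r = 0.52 with Apoa1 (adjusted p = 0.0799) and r = 0.71 after centring (adjusted p = 0.00767). The excess of the 3′ over the 5′ control probe set of Gapdh, a sign of shortened RNA or shortened copies, lay between 3.90 and 5.28 and had r = 0.49 (adjusted p = 0.099) and r = 0.66 after centring (adjusted p = 0.016). When the arrays were put on one distribution by quantile normalization, r with Apoa1 fell to 0.29 for Afp (adjusted p = 0.4), 0.56 for Ttr (adjusted p = 0.0642) and 0.57 for Foxa2 (adjusted p = 0.0639). It was 0.83 for Cubn (adjusted p = 0.0063), 0.72 for Hnf4a and 0.71 for Apob and Rbp4 (adjusted p = 0.0182 for each of the 3). The mean of 12 endothelial genes had r = 0.60 with Apoa1 (adjusted p = 0.039), 0.78 after centring (adjusted p = 0.0024), 0.82 and 0.70 within the higher and the lower run, and 0.35 after quantile normalization (adjusted p = 0.31). The mean of 12 mesenchyme and mesothelium genes had r = 0.52 (adjusted p = 0.0799), 0.75 after centring (adjusted p = 0.00493), 0.82 and 0.76 within the runs, and 0.25 after quantile normalization (adjusted p = 0.44). Both lists of other yolk sac cells therefore had a positive r with Apoa1 under each of these treatments. The sign was not fixed for the mean of 14 primitive erythroid genes, with r = −0.14 (adjusted p = 0.642), 0.40 after centring (adjusted p = 0.172), 0.14 and 0.51 within the runs, and −0.61 after quantile normalization (adjusted p = 0.0469). The mean of 12 macrophage genes had r = −0.41 (adjusted p = 0.173), −0.14 after centring (adjusted p = 0.624), 0.04 and 0.09 within the runs, and −0.45 after quantile normalization (adjusted p = 0.165). The part of other cell types, array spread and RNA quality in the shared ordering was not tested.

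**Figure D3:**
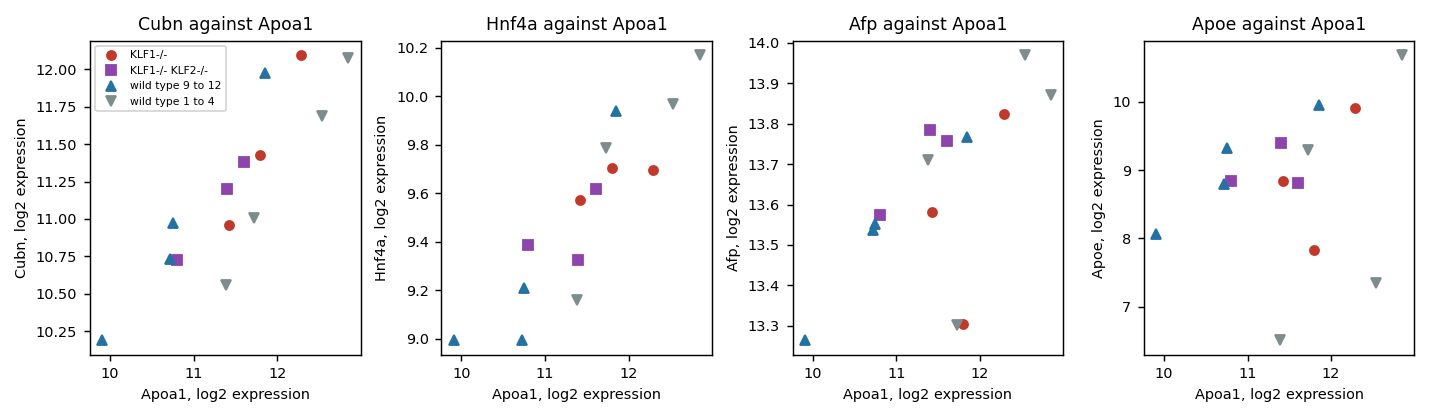
Log2 expression of Cubn, Hnf4a, Afp and Apoe (vertical axes) against log2 expression of Apoa1 (horizontal axis), 1 point per array with the symbol giving the group. Cubn and Hnf4a climb with Apoa1 across the arrays (r = 0.88 and 0.90), Afp does so within a narrow range, and Apoe has r = 0.27.

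Correlations of other listed genes with Apoa1 across the 14 arrays are given as a description, with no test. The genes share the arrays, the amplification and the normalization with Apoa1. Over all 12393 genes, each by its brightest probe set, the median r with Apoa1 was 0.04 and 52.2% lay above 0. Of 25 measured secreted and lipoprotein genes, 21 lay above 0, with a median of 0.43. Mttp, the transfer protein that loads lipid onto apolipoprotein B, had r = 0.93 and ranked 14 among all genes with Apoa1 itself at 1, Apom had r = 0.91, Apoc2 0.88, the fibrinogen gene Fgg 0.77 and the trypsin inhibitor gene Spink1 0.73. Alb, the albumin gene, had r = −0.38 and stayed between 6.11 and 6.75 on all arrays.

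All 11 measured absorptive genes had r above 0, with a median of 0.69. The receptor chaperone gene Lrpap1 had r = 0.91, the microvillus gene Vil1 0.92 and the endocytic adaptor gene Dab2 0.74, whereas the lipoprotein receptor gene Scarb1 had r = 0.20 and the metal transporter gene Slc39a8 r = 0.00438. Of 12 epithelial genes, 9 lay above 0 (median 0.61). The keratin genes Krt18 and Krt8 had r of 0.82 and 0.81, the desmosome gene Dsp 0.73 and the protease inhibitor gene Spint2 −0.06. Endoderm transcription factors were mixed, 7 of 12 above 0 with a median of 0.18. Sox17 had r = 0.61 and Hhex r = −0.14, Gata6 and Nr5a2 were both at 0.45, and Foxa3 was at 0.81. Lists of other cell types were mixed as well. Of 12 mesenchyme and mesothelium genes 10 lay above 0, with a median of 0.36, near that of the secreted list, and the brightest were the collagen genes Col3a1 (0.62) and Col1a1 (0.56), the smooth muscle actin gene Acta2 (0.55) and the matrix gene Lum (0.27). Of 12 endothelial genes 6 lay above 0 (median 0.09), with Plvap at 0.69, the growth factor receptor gene Kdr at 0.56, Lyve1 at 0.35 and Egfl7 at −0.05. Of 14 erythroid genes 5 lay above 0 (median −0.07), and the brightest were the globin genes Hbb-bh1 (0.46), Hba-x (0.41) and Hbb-y (0.09) and the anion exchanger gene Slc4a1 (−0.05). Of 12 macrophage genes 3 lay above 0 (median −0.23), with the growth factor receptor gene Csf1r at −0.56, Adgre1 at −0.42, Laptm5 at −0.40 and the mannose receptor gene Mrc1 at 0.38.

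The 10 genes outside the list with the highest r with Apoa1 were Slc2a2 (0.98), which encodes a glucose transporter, Jade1 (0.97), Slc9a3r1 (0.96), which encodes a scaffold of apical membranes, Cndp2, Depdc7, Hacd2, Fmr1nb, Hsd17b11, Ddt and Slc66a1 (0.94). Among all genes, Hnf4a ranked 38, Cubn 65, Ttr 84 and Apoa4 105 by this measure, against 1228 for Afp and 4429 for Apoe.

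**Figure D4:**
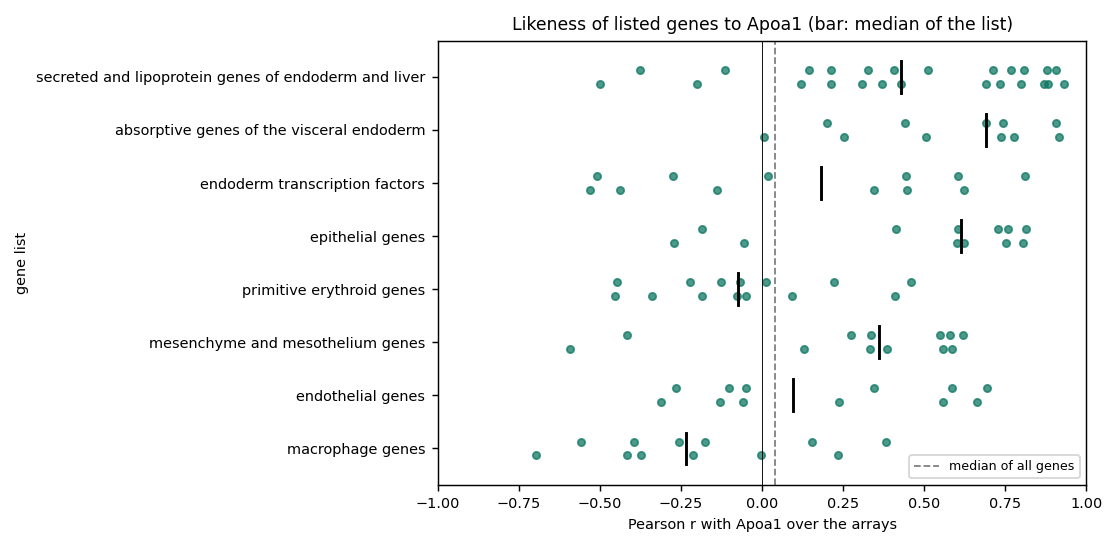
Pearson r with Apoa1 over the 14 arrays (horizontal axis) for every measured gene of 8 lists (rows), 1 point per gene, with a bar at the median of each list and a dashed line at the median of all genes. The absorptive and epithelial lists have medians of 0.69 and 0.61, while the erythroid and macrophage lists have medians of −0.07 and −0.23.

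Promoters of the serum protein genes Afp, Apoa1 and Apob are shown because such genes are known targets of endoderm factors. They are the windows that held 2 motif matches, and each other window searched held 1 or 0. Any link of the matches to the shared variation across arrays was not tested. The windows are the 250 bases before the RefSeq start (GRCm38.p6), written on the coding strand. Capitals mark matches on either strand to CAAAGNNCA for HNF4 and TGTTTNC for FOXA, and no match overlapped another. Afp lies at chr5:90490464-90490713 (plus strand), Apoa1 at chr9:46228380-46228629 (plus strand) and Apob at chr12:7977427-7977676 (plus strand).
Afp: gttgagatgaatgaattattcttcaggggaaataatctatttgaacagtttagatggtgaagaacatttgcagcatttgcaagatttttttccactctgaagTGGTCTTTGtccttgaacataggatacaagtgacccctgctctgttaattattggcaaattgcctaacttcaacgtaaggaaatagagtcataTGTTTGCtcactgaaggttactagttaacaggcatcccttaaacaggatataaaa
Apoa1: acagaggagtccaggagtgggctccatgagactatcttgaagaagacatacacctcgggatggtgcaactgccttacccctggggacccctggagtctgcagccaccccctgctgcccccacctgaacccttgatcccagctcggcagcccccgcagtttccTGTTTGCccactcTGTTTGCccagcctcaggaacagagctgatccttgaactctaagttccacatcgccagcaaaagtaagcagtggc
Apob: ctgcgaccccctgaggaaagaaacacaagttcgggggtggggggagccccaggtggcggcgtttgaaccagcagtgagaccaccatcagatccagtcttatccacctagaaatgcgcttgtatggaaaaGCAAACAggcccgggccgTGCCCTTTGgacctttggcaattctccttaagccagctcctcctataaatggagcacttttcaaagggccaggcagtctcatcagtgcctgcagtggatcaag
The Afp window held 1 match to each motif, the HNF4 match 148 to 140 and the FOXA match 55 to 49 bases before the start. Apoa1 held 2 FOXA matches, 88 to 82 and 75 to 69 bases before the start, and Apob held 1 HNF4 and 1 FOXA match. Of 32851 windows of this length, 5.49% held the HNF4 motif and 17.8% the FOXA motif. Among 15 windows of 9 of the genes (Ttr was not searched), 4 held HNF4 and 5 held FOXA. The 3 windows of Apoe and the 3 of Foxa2 held none. A match describes letters in a window and is no binding site by itself.

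No difference between genotypes passed the test for any of the 10 genes. Between KLF1-/- and wild type, limma fitted to all 22626 probe sets with Benjamini-Hochberg adjustment at 0.05 called 0 of the 24 probe sets of the 10 genes, against 6 probe sets of the whole array (0.0265%), and 0 of the 24 had an unadjusted p under 0.05, against 1.92% of all. None of the 24 set the KLF1-/- arrays apart from all wild-type arrays, while 0.23% of all probe sets lay lower without overlap and 0.283% higher. The brightest probe sets differed by 0.37 for Apoa1 (SE 0.50, 95% interval −0.70 to 1.44), 0.34 for Cubn (SE 0.38), 0.29 for Rbp4 (SE 0.37), 0.13 for Hnf4a (SE 0.25) and −0.28 for Apob (SE 0.67, interval −1.72 to 1.16), each with an adjusted p of 1. Of the 24 probe sets, 18 lay above 0 with a median of 0.07, against 51.9% of all probe sets above 0 and a median of 0.0059. Among the brightest probe sets the narrowest intervals were those of Ttr, −0.26 to 0.36, and of Afp, −0.39 to 0.29. On the Afp probe set 1416646_at the interval was −0.75 to 0.89. For Apoa1, Apob, Apoe, Rbp4 and Cubn the intervals reach past a doubling, so differences of that size were not excluded at this number of arrays.

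Between arrays labelled KLF1-/- KLF2-/- and wild type, 0 of the 24 were called against 5 of all probe sets (0.0221%), and 0 had an unadjusted p under 0.05, against 2.11% of all. None of the 24 separated without overlap, against 0.305% of all probe sets lower and 0.393% higher. The differences were −0.51 for Apob (SE 0.67, 95% interval −1.95 to 0.93), −0.20 for Apoa1 (SE 0.50), −0.15 for Foxa2 (SE 0.19), 0.27 for Apoe (SE 0.72) and 0.08 for Afp (SE 0.16). There were 11 of 24 above 0, with a median of −0.05, against 51.7% of all probe sets. Between arrays labelled KLF1-/- KLF2-/- and KLF1-/- arrays, 0 of all 22626 probe sets were called (0%), 142 had an unadjusted p under 0.05 (0.628%), and 0 of the 24 were among them. Apoa1 differed by −0.57 (SE 0.60), Cubn by −0.39 (SE 0.46) and Apob by −0.23 (SE 0.81), and 8 of 24 lay above 0, against 49.8% of all probe sets. None of the 24 separated these genotypes without overlap, against 1.61% of all probe sets lower and 1.87% higher. The 3 comparisons share arrays.

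Apob and Apoa1 were lower in wild-type arrays with the higher title numbers than in those with the lower ones, and neither difference passed the test. In wild type 9 to 12 Apob averaged 9.39 ± 1.13 (SD, n = 4), against 11.30 ± 0.55 in wild type 1 to 4 (SD, n = 4), a difference of −1.91 (SE 0.50, 95% interval −2.98 to −0.83) with a limma p of 0.00205 and an adjusted p of 0.337. Apoa1 averaged 10.81 ± 0.80 in wild type 9 to 12 and 12.12 ± 0.68 in wild type 1 to 4 (SD, n = 4 each), a difference of −1.32 (SE 0.40, interval −2.18 to −0.45, limma adjusted p = 0.404). The difference was −0.53 for Apoa4 (adjusted p = 0.548), −0.49 for Hnf4a (0.641), −0.31 for Ttr (0.597), −0.43 for Rbp4 and −0.36 for Cubn. Apoe alone among the 10 brightest probe sets lay above 0, at 0.57 (SE 0.76). The dimmer Cubn probe set 1426990_at lay at 0.42 (SE 0.57). Of the 24 probe sets, 7 had an unadjusted limma p under 0.05, all of them below 0, and 0 were called. The 7 belonged to 4 genes, Apoa1, Apoa4, Apob and Ttr, and probe sets of the same gene are not separate observations.

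Over the whole array, 7.92% of all probe sets (1792) had an unadjusted p under 0.05 between these wild-type arrays, and 0 were called after adjustment. Only 4 of the 24 lay above 0, with a median of −0.31, against 47% of all probe sets and a median of −0.01. No probe set of the 10 genes separated wild type 9 to 12 from wild type 1 to 4 without overlap, and wild type 10 lay among wild type 1 to 4 for both Apob and Apoa1. Of all probe sets, 2.13% lay lower without overlap and 1.12% higher. Without wild type 10 the difference was −2.46 for Apob and −1.66 for Apoa1. Without wild type 4, 143 probe sets of the whole array were called and 0 of the 24.

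Most listed genes of the same epithelium lay lower in wild type 9 to 12 too, and 0 of the listed genes were called in any of the comparisons. Of the 25 secreted and lipoprotein genes, 3 lay above 0 and 7 had an unadjusted p under 0.05, with a list median of −0.21. The apolipoprotein genes Apoa2 (−1.20) and Apom (−1.01), Spink1 (−1.09) and Mttp (−1.03) showed the wide differences. Among 12 epithelial genes 1 lay above 0 (median −0.39), and among 11 absorptive genes 3 did (median −0.21). Of 12 endoderm transcription factors 4 lay above 0, with a median of only −0.06. Lists of other cells had 5 of 12 above 0 for mesenchyme and mesothelium (median −0.12), 5 of 12 for endothelium (−0.08) and 7 of 12 for macrophages (0.02). Of 14 erythroid genes, 11 lay above 0 (median 0.43). Among them were Alas2, the first enzyme of erythroid haem synthesis, at 1.32 (limma adjusted p = 0.365) and Klf1 itself at 0.88 (adjusted p = 0.439). Of the globin genes in that list, Hba-x lay above 0, while Hbb-y, Hbb-bh1 and Hba-a1 did not. Hbb-y and Hbb-bh1 read near the top of the scale. Apoa2, Mttp, Alas2 and Hba-a1 were picked with their values known. So were Alb, Vil1 and Foxa3 for their correlations, and Gata1 for its level.

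The choice of wild-type run also turned the sign of many genotype differences. Set against wild type 1 to 4 alone, KLF1-/- arrays differed by −1.23 for Apob (SE 0.54, 95% interval −2.39 to −0.07, limma adjusted p = 1) and by −0.29 for Apoa1 (SE 0.43). Of the 24 probe sets 7 lay above 0, against 47.8% of all, and 0 were called, against 0.00884% of all. The 3 KLF1-/- arrays, at 9.52 to 10.55, lay below all of wild type 1 to 4, at 10.85 to 12.02. Apob was the 1 probe set of the 24 to separate in this way, against 1.4% of all probe sets lying lower without overlap and 1.56% higher. Set against wild type 9 to 12 alone, arrays labelled KLF1-/- KLF2-/- differed by 0.44 for Apob (SE 0.54) and by 0.46 for Apoa1 (SE 0.43), and 19 of 24 lay above 0, against 55% of all probe sets. None of the 24 separated there, against 1.46% of all probe sets lower and 2.89% higher. With the run taken into account, the arrays labelled KLF1-/- KLF2-/- differed from KLF1-/- arrays by 1.68 for Apob (SE 0.76, limma adjusted p = 1) and by 0.75 for Apoa1 (SE 0.61). The number run and differences among the wild-type arrays that stand for it cannot be told apart.

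**Figure D5:**
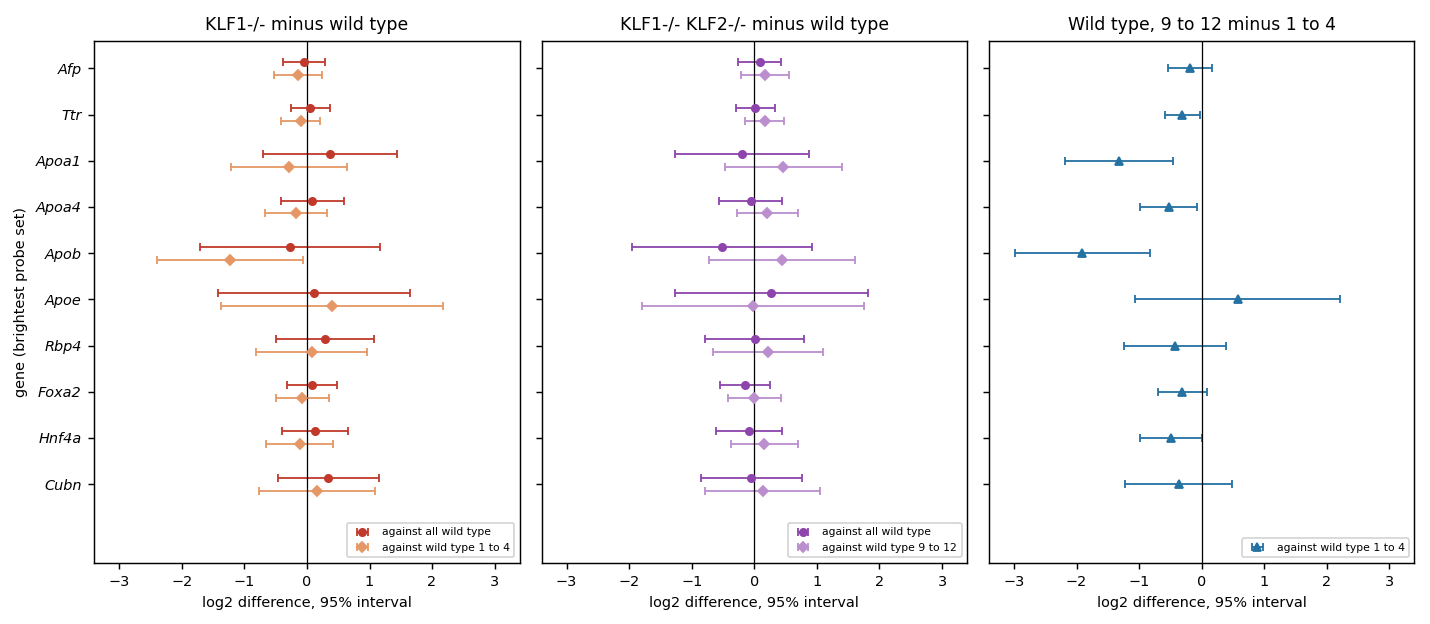
Log2 difference (horizontal axis, points) with its 95% interval (bars) for the brightest probe set of each of the 10 genes (rows), for each mutant genotype minus wild type and for wild type 9 to 12 minus wild type 1 to 4. In the first and second panels the differences against all wild type (circles) and against wild type of the same number run (diamonds) lie on opposite sides of 0 for Apoa1, and in the third panel Apob and Apoa1 lie at −1.91 and −1.32.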

How the data were processed

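Expression was measured on 14 Affymetrix arrays in 3 genotypes. The authors deposited log2 values in 1 table, and GCOS, RMA, affy and limma appear, without versions, in the submitters' processing notes. RMA corrects background, normalizes between arrays and summarises probes. Of 22690 probe sets, 64 controls were left out of the tests. Of the other 22626, 20380 carried 1 gene symbol, 691 several and 1555 none.

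Differences were fitted with limma 3.58.1 in R 4.3.3 (lmFit, eBayes, 1 mean per genotype, all 14 arrays), two-sided, with Benjamini-Hochberg adjustment over 22626 probe sets. The comparison of wild-type runs used 4 means, which also gave each mutant against wild type of its own run. A gene's brightest probe set has the highest mean over all arrays. Correlations used 100000 permutations. The limma step was tested on simulated data with independent normal noise, in which log2 changes of 1 and 2 either way were added together, each to 50 probe sets drawn at random. A log2 change of 1 was recovered, for KLF1-/- minus wild type, in 64% of probe sets when lower and 84% when higher.

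The members and lists were chosen with earlier results of these data known. Named were the members by their brightest probe sets, some of their dimmer probe sets, Klf1 and Klf2, the 4 brightest genes of each list and the 10 genes most like Apoa1. Further genes are marked where they appear. The lists cover 8 groups of 117 genes, some of which are not reported here. Alternatives were the run as a block, 1 probe set per gene, a filter on dim probe sets, quantile normalization, another variance model, array weights (gene by gene), fewer arrays in the fit, and each array left out. Arrays give no read depth, so their number limits precision.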

Additional observations from a re-analysis of the deposited data

Results flagged for a closer look

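Apoa4 on its dimmer probe set, 1417761_at, read 9.97 in wild type 2, and the nearest other wild-type array read 8.89. The gap was 0.53 of the wild-type range, above the critical value of 0.526 for 8 arrays. It was the 1 value marked among 24 wild-type groups examined, 1 for each probe set, and chance marks about 1 in 20 such groups. KLF1-/- 6 read 9.67 on the same probe set, and the brighter Apoa4 probe set was also highest in wild type 2, at 12.66.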

How the results depend on the processing

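Under each alternative and with each array left out, 0 of the fitted probe sets of the 10 genes were called in any of the 4 comparisons (limma, adjusted p under 0.05). All 24 were fitted except with 1 probe set per gene, which kept the brightest, and with the filter, which dropped dim ones. Every change of sign below therefore concerns a difference that did not pass the test, and the cause was not tested. With the number run as a block the differences that changed sign were, for KLF1-/- minus wild type, Apoa1 −0.29, Foxa2 −0.079, Hnf4a −0.11, Apoa4 −0.18, Ttr −0.10; for KLF1-/- KLF2-/- minus wild type, Apoa1 0.46, Foxa2 0.0019, Hnf4a 0.16, Apoe −0.017, Apoa4 0.21, Cubn 0.13, Apob 0.44; for KLF1-/- KLF2-/- minus KLF1-/-, Apoa1 0.75, Foxa2 0.081, Rbp4 0.14, Hnf4a 0.27, Apoe −0.42, Apoa4 0.38, Ttr 0.27, Apob 1.68. With array weights they were, for KLF1-/- minus wild type, Foxa2 −0.047, Rbp4 −0.090, Apoe −0.60, Apoa4 −0.013, Cubn −0.23; for KLF1-/- KLF2-/- minus wild type, Apoa1 0.088, Foxa2 0.022, Rbp4 −0.069, Apoe −0.39, Apoa4 0.063; for KLF1-/- KLF2-/- minus KLF1-/-, Foxa2 0.069, Rbp4 0.021, Apoa4 0.076, Cubn 0.18, Ttr 0.051. With quantile normalization they were Rbp4 −0.054, Ttr −0.014 for KLF1-/- KLF2-/- minus wild type. For wild type 9 to 12 minus 1 to 4, no brightest probe set of the 10 genes changed sign under these alternatives. With arrays left out in turn, the differences that changed sign ranged, for KLF1-/- minus wild type, over Afp −0.18 to 0.081, Apoe −0.41 to 0.63, Foxa2 −0.0080 to 0.16, Rbp4 −0.056 to 0.46, Ttr −0.032 to 0.15; for KLF1-/- KLF2-/- minus wild type, over Apoa1 −0.42 to 0.038, Apoa4 −0.14 to 0.11, Apoe −0.049 to 0.55, Cubn −0.19 to 0.14, Foxa2 −0.30 to 0.028, Hnf4a −0.17 to 0.0061, Rbp4 −0.12 to 0.18, Ttr −0.034 to 0.070; for KLF1-/- KLF2-/- minus KLF1-/-, over Apoa4 −0.23 to 0.020, Apob −0.60 to 0.14, Apoe −0.36 to 0.68, Rbp4 −0.46 to 0.060, Ttr −0.14 to 0.044; for wild type 9 to 12 minus 1 to 4, over Apoe −0.075 to 1.32. 

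The number of all probe sets called for KLF1-/- minus wild type was 6, against 2 with the block, 16 with array weights and 2 to 7 with arrays left out (2 without KLF1-/- 6 or 8). For KLF1-/- KLF2-/- minus wild type it was 5, against 8 with 1 probe set per gene or with the filter, 9 after quantile normalization, 10 with the other variance model, 627 with array weights and 1 to 6 with arrays left out (1 without array 13 or 14, 2 without wild type 10, 3 without wild type 1, 2, 3, 11 or 12). For KLF1-/- KLF2-/- minus KLF1-/- it was 0, against 1 with 1 probe set per gene, the filter or quantile normalization, 4 with array weights and 0 to 1 with arrays left out (1 without KLF1-/- 5). For the wild-type runs it was 0, and 0 to 143 with arrays left out (143 without wild type 4). Of the relations with Apoa1, centring on genotype and run ended the call for Apob (0.53) and Foxa2 (0.53), made one for Apoe (0.60), the interquartile range (0.71), the Gapdh 3′ excess (0.66) and the mesenchyme list (0.75), and turned the sign for the erythroid list (0.40), which passed under neither. The p-values after centring make no allowance for the means removed and are too small, so the calls made by centring are uncertain. Quantile normalization ended the call for Afp (0.29), Ttr (0.56), Foxa2 (0.57) and the endothelial list (0.35), and made one for the erythroid list (−0.61). No paired analysis was possible because genotypes share no number in the titles. With 3 arrays per mutant genotype, and probe sets of Afp and Ttr near the top of the scale, smaller differences would not be seen.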
